A study of Mus musculus with 4 samples.

Results

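Expression of 9 genes of the AP-1 transcription factors (Fos, Fosb, Fosl1, Fosl2, Jun, Junb, Jund, Atf3 and Maff) was examined in RNA-seq libraries of mouse HFSCs, hair follicle stem cells, after 10 and 48 passages. The genes were chosen by symbol, and all 9 were found among the 24346 gene symbols of the libraries. HFSCs were sorted as CD49f+ CD34+ cells from dorsal skin of adult C3H/HeN mice and passaged weekly in the serum-free medium M-CnT, without added Wnt proteins or inhibitors, so that strain and medium were shared by both groups. There were 2 libraries of cells passaged 10 times (10p-HFSCs) and 2 of cells passaged 48 times (48p-HFSCs), and the comparison asks what changed between short- and long-term culture. Neither the labels nor the methods state whether the replicates were separate cultures, so that the p-values measure the spread between these libraries, which may be technical. Values are FPKM, fragment counts scaled by transcript length and library size, as computed by the authors.

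AP-1 is a dimer of basic leucine zipper (bZIP) proteins. JUN proteins can pair with themselves or with a FOS protein, whereas FOS proteins need a JUN partner, and the dimers bind the short palindromic element known as TRE in promoters and enhancers. Many of these genes are immediate-early genes, transcribed within minutes of growth factor or stress signals through the ERK, JNK and p38 kinases, and in keratinocytes AP-1 is known for its part in proliferation, wound responses and terminal differentiation. The activity of the proteins also depends on phosphorylation and turnover, which RNA levels do not show.

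The libraries were not alike in scale. The smallest FPKM steps of the other 10p-HFSC library were 1.396 times those of replicate 1 of 10p-HFSCs. In replicates 1 and 2 of 48p-HFSCs they were 1.206 and 2.141 times as large as in that replicate. If the steps follow depth alone, the relative depths were 71.6%, 82.9% and 46.7%, in this order. Without read counts, a difference in depth cannot be told apart from one in scaling. The summed FPKM ranged from 581516 to 1414953, the highest sum being that of replicate 2 of 48p-HFSCs, and a gap of 2-fold or more between replicates was seen for 151 of the tested genes in 10p-HFSCs and for 1871 in 48p-HFSCs (log2(FPKM + 1) scale). Of 6 basal keratinocyte markers, all were above an FPKM of 1 in at least 1 library, and 5 had a positive and 1 a negative difference. Of the 6, 2 were called higher and 0 lower, against 10.8% and 9.15% of all genes tested. Krt14, a keratin of basal keratinocytes, was at 1423 and 1217 in 10p-HFSCs against 3896 and 2439 in 48p-HFSCs, and was not called. Of 6 hair follicle stem cell markers, 4 (Cd34, Lhx2, Lgr5 and Nfatc1) were under an FPKM of 1 in every library. The others were expressed. Krt15 was at 136 and 82.6 in 10p-HFSCs against 425 and 18.8 in 48p-HFSCs, with overlap. Sox9 was at 45.6 and 44.2 in 10p-HFSCs against 20.2 and 8.31 in 48p-HFSCs, and was called lower (limma adjusted p = 0.039). By quantitative PCR, the paper reports Cd34 as maintained and Lhx2 and Sox9 as increased in long-term culture. It also reports that most cells stained for the CD34 protein after short- and long-term culture. In these libraries Sox9 went the other way, and RNA of Cd34 and Lhx2 was near absent. The reason for this difference was not tested. The summed FPKM of 6 fibroblast markers was 60.2 to 68.9 in 10p-HFSCs and 0.151 to 0.242 in 48p-HFSCs, almost wholly from Col1a2, with Dcn and Lum at 0 throughout. That of 6 leukocyte markers was 7.31 to 7.61 and 56.4 to 80.7, almost wholly from Cd68, with Cd3e and Tyrobp at 0. The 1 fibroblast marker tested was called lower, and the 2 leukocyte markers tested were called higher. The fibroblast and leukocyte sums differed between the groups, as did some of the genes below, and the part of the marked cell types in the results was not tested.

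Of the 9 AP-1 genes, 8 passed the filter on low values (1 FPKM or more in 2 or more libraries), and 2 of these, Jun and Junb, were called higher in 48p-HFSCs, against 10.8% higher and 9.15% lower of all 11018 genes tested. A call required an adjusted p-value under 0.05 from limma on the log2(FPKM + 1) scale and a log2 difference of at least 1. After TPM rescaling, described below, neither of them was called, and then 5.63% of all genes were called higher and 7.44% lower. None of the 8 was called lower in either fit, and no AP-1 gene with a negative difference had an unadjusted p-value under 0.05. The median log2 difference of the 8 genes was 0.44, against -0.03 for all genes. With 2 libraries a group, a gene that was not called is not shown to be unchanged. In bulk RNA, a change in the share of cells that express a gene and a change in the RNA per cell cannot be told apart.

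**Figure D1:**
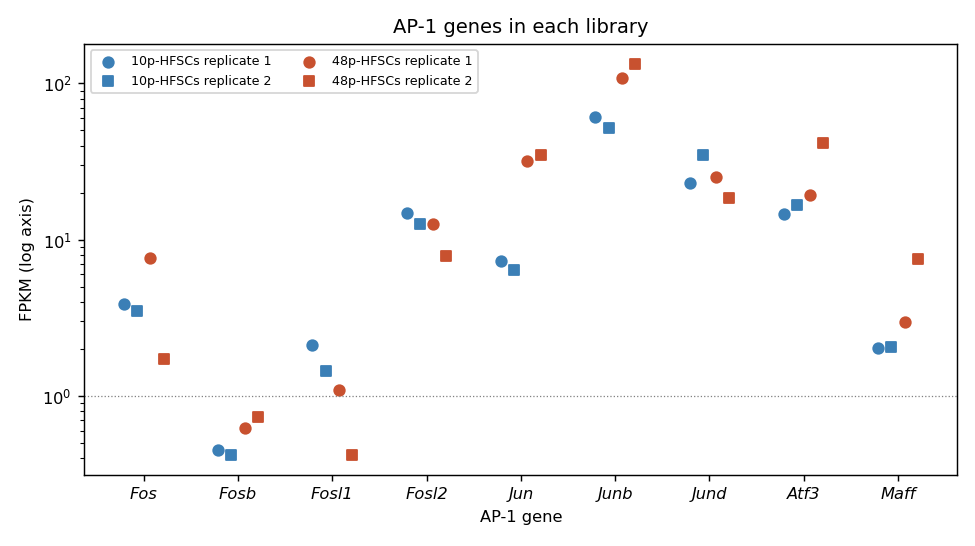
FPKM (log axis) of the 9 AP-1 genes in each of the 4 libraries, blue for 10p-HFSCs and red for 48p-HFSCs, with circles for replicate 1, squares for replicate 2 and a dotted line at an FPKM of 1. Both red points lie far above both blue points for Jun, while those of Fos lie on either side of the blue points.

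Jun, which encodes c-Jun, the strongest activator among the JUN proteins, lies at chr4:95049034-95052222 on the minus strand of GRCm38 (mm10) and has 1 exon. Its FPKM was 7.26 and 6.38 in 10p-HFSCs against 31.9 and 35.0 in 48p-HFSCs (here and below, replicate 1 before replicate 2). In FPKM as deposited, the groups did not overlap, and within each group the libraries lay close together. The mean rose 4.90-fold, from 6.82 ± 0.62 to 33.5 ± 2.2 (SD, n = 2), and on the log2(FPKM + 1) scale this was a log2 difference of 2.14 (standard error, SE, 0.25, limma adjusted p = 0.0038). Ranked within each library among the genes tested, a measure that no scaling can move, Jun stood at the percentiles 35.7 and 33.3 in 10p-HFSCs against 77.3 and 75.5 in 48p-HFSCs. With any single library omitted, the log2 difference of Jun stayed between 2.06 and 2.22 and the call was kept. When the libraries were rescaled to the same summed FPKM (TPM), the difference was 1.60 with an SE of 0.61, and the call was lost (limma adjusted p = 0.10). That rescaling moved the median of all genes by -0.51, and relative to this median the difference of Jun was 2.17 before and 2.15 after it. The SE of Jun rose from 0.25 to 0.61 with the rescaling. On the rescaled values, Jun was at 40.5 and 20.9 in 48p-HFSCs, further apart than as deposited, and at most 10.6 in 10p-HFSCs. The groups still did not overlap.

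The genes whose FPKM over the 4 libraries lay nearest to those of Jun were Lipa, which encodes lysosomal acid lipase, Ablim1, an actin-binding LIM protein gene, and Msln, the mesothelin gene. Their root mean square differences from Jun on the log2(FPKM + 1) scale were 0.14, 0.14 and 0.20 over the 4 libraries. With 2 levels of a single factor, many genes can share such a pattern.

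The promoters of the called genes Jun and Junb are shown because elements through which immediate-early genes are known to be induced often lie just before the start. Each sequence is the 250 bases before the RefSeq start, read 5′ to 3′ on the strand of the gene, at chr4:95052223-95052472 (minus strand) for Jun and chr8:84978749-84978998 (minus strand) for Junb, GRCm38.p6. Capitals mark the matches to the motifs named after them.
Jun: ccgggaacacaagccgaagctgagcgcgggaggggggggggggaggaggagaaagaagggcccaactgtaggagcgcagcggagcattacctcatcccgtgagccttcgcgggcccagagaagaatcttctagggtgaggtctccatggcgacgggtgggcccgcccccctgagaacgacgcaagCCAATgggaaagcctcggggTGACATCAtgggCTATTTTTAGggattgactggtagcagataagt
Junb: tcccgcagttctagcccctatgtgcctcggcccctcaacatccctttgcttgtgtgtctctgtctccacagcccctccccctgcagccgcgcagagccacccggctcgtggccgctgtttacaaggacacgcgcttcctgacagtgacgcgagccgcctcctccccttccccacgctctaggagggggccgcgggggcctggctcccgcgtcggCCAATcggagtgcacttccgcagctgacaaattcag

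Both strands were searched for the TRE (TGACTCA), the cAMP response element CRE (TGACGTCA), the variant TGACATCA known as the jun1 element, a MEF2 site, the CCAAT box (CCAAT), the TATA box (TATAAA) and the CArG box bound by serum response factor. Read from the start backwards, the Jun window held the MEF2 site at -33 to -24, the jun1 element at -45 to -38 and a CCAAT box at -65 to -61. The MEF2 site stood in 0.103% and the jun1 element in 2.93% of 32851 promoter windows of the same length, and the CCAAT box in 33.8%. The share of the MEF2 site is that of 1 exact string and not of MEF2 sites in general. The jun1 element is known as a site at which c-Jun and ATF2 act on the Jun promoter itself, so its match there was known in advance. The Junb window held only a CCAAT box, at -36 to -32. Of the other AP-1 genes, Fos had the TATA box at -33 to -28, and Maff had the jun1 element at -45 to -38 of one window and the CRE at -29 to -22 of another. Windows were found for 8 of the 9 genes, 10 windows in all, Fosl1 having none. In none of the windows was there a match to the TRE, which stood in 4.46% of all windows, or to the CArG box, in 1.47%. The RefSeq starts can differ from the gene positions given here. The window of Jund ends at chr8:70697738, well before the gene start at 70698949, so it does not cover the bases just before that start. Elements further from the start are outside these windows.

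Junb, whose protein is a weaker activator than c-Jun and can oppose it, lies at chr8:84974484-84978718 on the minus strand and also has 1 exon. Its FPKM was 60.8 and 52.1 in 10p-HFSCs against 108.6 and 133.9 in 48p-HFSCs, the highest of the 9 genes in every library. The groups did not overlap, and the mean rose 2.15-fold, from 56.5 ± 6.14 to 121.2 ± 17.8 (SD, n = 2), a log2 difference of 1.09 (SE 0.28, limma adjusted p = 0.043). This call was near both limits. It was lost without the filter on low values (adjusted p = 0.055), after correction for transcript length (log2 difference 0.77, adjusted p = 0.071), under quantile normalization (0.84, below the fold limit) and under TPM rescaling (0.51, adjusted p = 0.41). It was also lost without replicate 1 (adjusted p = 0.40) or replicate 2 (adjusted p = 0.45) of 10p-HFSCs, and without replicate 2 of 48p-HFSCs (log2 difference 0.94). After the TPM rescaling the libraries stood at 88.4 and 61.3 against 137.9 and 80.0, so that the groups overlapped. The gene overlaps Prdx2 on the opposite strand, which was at 292 and 305 in 10p-HFSCs against 154 and 279 in 48p-HFSCs, and the strand setting of the counting was not stated.

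Jund, the JUN gene that resting cells already express and whose protein is known to restrain growth, lies at chr8:70698949-70700616 on the plus strand, with 1 exon. Its FPKM was 23.2 and 34.9 in 10p-HFSCs against 25.1 and 18.5 in 48p-HFSCs. The groups overlapped, and the log2 difference of -0.39 (SE 0.31, limma adjusted p = 0.40) was within the spread of the replicates. Junb and Jund both lie on chromosome 8, whose 565 tested genes had a median log2 difference of -0.61, lower than that of either gene.

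A share within a library does not depend on how libraries are scaled, so the makeup of the JUN family RNA was compared directly. Jun made up 7.95% and 6.84% of the summed FPKM of the 3 JUN genes in 10p-HFSCs against 19.3% and 18.7% in 48p-HFSCs. The shares did not overlap and differed by 11.6 percentage points, many times the SD of 0.79 and 0.40 percentage points between replicates. Jund made up 25.4% and 37.4% in 10p-HFSCs against 15.1% and 9.86% in 48p-HFSCs, again without overlap. Junb stayed the main transcript, with 66.6% and 55.8% in 10p-HFSCs against 65.6% and 71.5% in 48p-HFSCs, and its shares overlapped. Per length, the level of Jun RNA was at 0.313 and 0.183 of the level of Jund RNA in 10p-HFSCs against 1.27 and 1.90 of it in 48p-HFSCs, so that the order of these genes turned. With 2 libraries against 2, an exact permutation test reaches no two-sided p below 0.333, which is the value for the shares of both Jun and Jund.

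**Figure D2:**
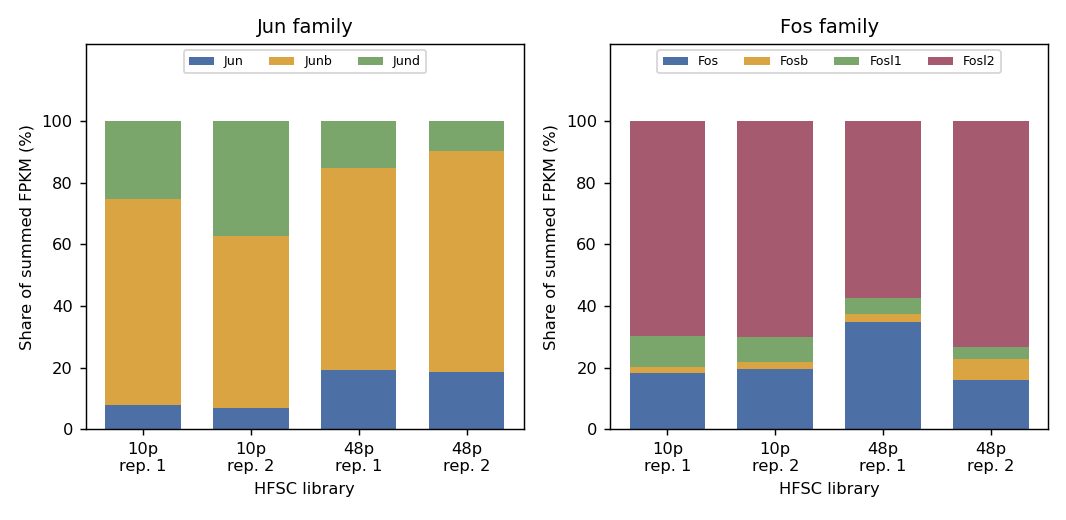
Share of each gene (%) in the summed FPKM of the JUN genes (left) and of the FOS genes (right), in each of the 4 libraries. The Jun share is under 8% in both 10p-HFSC libraries and near 19% in both 48p-HFSC libraries, while the Fos share is high in replicate 1 of 48p-HFSCs only.

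The FOS genes gave no call. Fosl2, which encodes FRA-2, a FOS protein without the strong activation domain of c-Fos, lies at chr5:32135801-32157842 on the plus strand and was the most abundant of them. Its FPKM was 14.8 and 12.6 in 10p-HFSCs against 12.6 and 7.82 in 48p-HFSCs, a log2 difference of -0.42 (SE 0.32, limma adjusted p = 0.38), and it made up between 57.4% and 73.2% of the FOS family RNA of a library. Only replicate 2 of 48p-HFSCs was well below the other libraries.

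Fos, the classical immediate-early gene at chr12:85473890-85477273 on the plus strand, was at 3.85 and 3.50 in 10p-HFSCs against 7.64 and 1.72 in 48p-HFSCs. The replicates of 48p-HFSCs lay on opposite sides of 10p-HFSCs, and the log2 difference of 0.05 had an SE of 0.55 (limma adjusted p = 0.96). Its direction rested on single libraries, being -0.78 without replicate 1 of 48p-HFSCs and 0.89 without replicate 2, and it turned to -0.32 under TPM rescaling, to -0.18 after correction for transcript length and to -0.01 with a pseudocount of 0.1. These libraries therefore give no direction for Fos.

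Fosl1, which encodes FRA-1, a FOS protein known for its rise in migrating and transformed epithelial cells, lies at chr19:5447547-5455946 on the plus strand. Its FPKM was 2.12 and 1.45 in 10p-HFSCs against 1.10 and 0.418 in 48p-HFSCs. The groups did not overlap, but the log2 difference of -0.68 (SE 0.30, limma adjusted p = 0.16) was not called, and the values are near the lower end of what these libraries measure. The gene overlaps Ccdc85b on the opposite strand. Fosb, at chr7:19302696-19310051 on the minus strand, did not pass the filter. Its FPKM was 0.452 and 0.420 in 10p-HFSCs against 0.627 and 0.732 in 48p-HFSCs, and in a fit without the filter its log2 difference was 0.23 (limma adjusted p = 0.23).

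The summed FPKM of the FOS genes was 21.2 and 17.9 in 10p-HFSCs against 22 and 10.7 in 48p-HFSCs, with overlap, whereas that of the JUN genes was 91.3 and 93.4 against 165.6 and 187.3, without overlap. The summed FPKM of the JUN genes was thus 4.30 and 5.21 times that of the FOS genes in 10p-HFSCs and 7.53 and 17.5 times in 48p-HFSCs. This ratio, chosen after its parts had been seen, did not overlap between the groups, and its size in 48p-HFSCs differed more than 2-fold between the replicates.

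Atf3 and Maff encode bZIP proteins that pair with or resemble AP-1 factors. Atf3, a stress-induced gene whose protein pairs with JUN proteins and often represses, lies at chr1:191170296-191218039 on the minus strand. Its FPKM was 14.6 and 16.7 in 10p-HFSCs against 19.4 and 41.6 in 48p-HFSCs, a log2 difference of 0.83 (SE 0.39, limma adjusted p = 0.19). Maff, a small MAF protein without an activation domain, at chr15:79346621-79359076 on the plus strand, was at 2.03 and 2.06 in 10p-HFSCs against 2.97 and 7.5 in 48p-HFSCs, a log2 difference of 0.93 (SE 0.41, limma adjusted p = 0.16). For both genes the groups did not overlap, but replicate 2 of 48p-HFSCs carried most of the difference. Without replicate 1 of 48p-HFSCs both were called, with log2 differences of 1.36 and 1.48 (limma adjusted p = 0.0017 for each), and without replicate 2 they were 0.29 and 0.38. After TPM rescaling Atf3 stood at 21.2 and 19.6 against 24.6 and 24.8, and Maff at 2.96 and 2.42 against 3.77 and 4.48. On this scale the 48p-HFSC replicates lay closer together, the groups still did not overlap, and neither gene was called. Among the 8 genes tested, 48p-HFSCs were above 10p-HFSCs in both libraries for 4 (Jun, Junb, Atf3 and Maff) and below for 1 (Fosl1), against 31.7% and 34.3% of all genes tested.

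**Figure D3:**
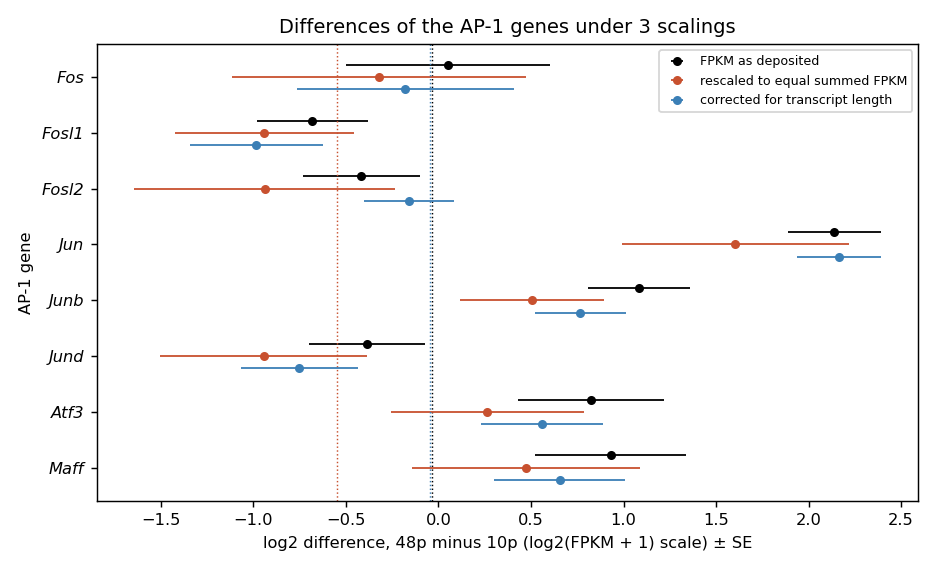
Difference between 48p- and 10p-HFSCs on the log2(FPKM + 1) scale with its limma standard error, for the 8 AP-1 genes tested, from FPKM as deposited (black), after TPM rescaling (red) and after correction for transcript length (blue). Dotted lines mark the median of all genes in each fit, and Jun is far to the right of them in all 3, while Fos spans them.

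Other bZIP genes that pair with AP-1 proteins or bind similar elements were taken as a list of 19, of which 10 were tested. Of these, 2 were called higher and 1 lower, where 10.8% and 9.15% of all genes were, counts too small to set apart from those shares, with a median log2 difference of 0.16. Batf3, whose protein pairs with JUN proteins and is best known from dendritic cells, was at 0.0959 and 0.134 in 10p-HFSCs against 2.54 and 4.31 in 48p-HFSCs, a log2 difference of 1.96 (SE 0.28, limma adjusted p = 0.0077). Nfe2l1, which encodes NRF1, a regulator of proteasome genes and a partner of small MAF proteins, was at 41.2 and 37.7 in 10p-HFSCs against 109.7 and 109.5 in 48p-HFSCs, a log2 difference of 1.45 (limma adjusted p = 0.013). Maf, the gene of c-Maf, a large MAF protein with an activation domain, fell from 6.23 and 6.31 in 10p-HFSCs to 0.0171 and 0.0304 in 48p-HFSCs, a log2 difference of -2.83 (limma adjusted p = 0.0014). The rise of Nfe2l1 was no longer called under TPM rescaling (adjusted p = 0.19) or without replicate 1 (0.19) or replicate 2 (0.20) of 10p-HFSCs. That of Batf3 was no longer called without replicate 1 (log2 difference 1.94) or replicate 2 (1.99) of 10p-HFSCs. Batf3 passed the filter through 48p-HFSCs only, so it was not tested without either of their libraries. Maf passed through 10p-HFSCs only and was likewise not tested without either of theirs.

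Genes induced together with Fos and Jun by growth factors or stress were taken as a list of 25 immediate-early genes. Of 21 tested, 5 were called higher and 3 lower, a share to be read against 19.9% of all genes called in either direction, with a median log2 difference of 0.39. The list did not move one way. Cyr61, which encodes the matricellular protein CCN1, rose from 34.2 and 41.5 to 237 and 672 (log2 difference 3.37, limma adjusted p = 0.0097), whereas Ctgf, the gene of the related CCN2, fell from 85.7 and 69.4 to 7.24 and 6.71 (log2 difference -3.29, limma adjusted p = 0.0012). Nfkbiz, an atypical IkB gene, rose from 2.1 and 2.48 to 20.2 and 24.5 (log2 difference 2.82, limma adjusted p = 0.0021). Gadd45b, a stress-induced gene upstream of p38 and JNK, was at 26.7 and 29.1 in 10p-HFSCs against 85.3 and 406 in 48p-HFSCs (log2 difference 2.70, limma adjusted p = 0.045), a call that was lost without the filter on low values (adjusted p = 0.11) and with a constant variance prior (0.055). Without replicate 2 of 48p-HFSCs the log2 difference of Gadd45b was 1.58. Of the EGR zinc finger genes, those tested were low and fell, Egr3 from 3.07 and 3.42 to 0.426 and 0.0582 (log2 difference -1.79, limma adjusted p = 0.0081), and Egr2 from 1.17 and 1.36 to being listed at 0 in both 48p-HFSC libraries. Both Egr2 and Egr3 passed the filter through 10p-HFSCs only. Egr1 and Egr4, named after their values had been seen, were not tested, Egr1 being at most 0.290 in any library and Egr4 listed at 0 in all.

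Upstream of AP-1, 37 genes of RAS, RAF, the ERK, JNK and p38 kinases, their kinases and substrates and regulators of JUN were taken as a list, and 34 were tested. Of these, 2 were called higher and 3 lower, against 10.8% and 9.15% of all genes tested, with a median log2 difference of -0.06, so that calls were no more frequent in this list than among all genes. The 5 that were called include a pair of p38 genes that moved in opposite directions. Mapk12, the gene of p38 gamma, fell from 18.2 and 27.7 in 10p-HFSCs to 0.0349 and 0 in 48p-HFSCs (log2 difference -4.53, limma adjusted p = 0.00093), and Mapk13, the gene of p38 delta, the form known for its part in keratinocyte differentiation, rose from 0.619 and 1.27 to 8.11 and 27.3 (log2 difference 3.07, limma adjusted p = 0.017). Rps6ka6, which encodes the ERK-regulated kinase RSK4, was listed at 0 in 10p-HFSCs and reached 9.73 and 10.3 in the libraries of 48p-HFSCs. Elk3, a ternary complex factor that acts with serum response factor at the Fos promoter, fell from 59.5 and 59.0 to 29.1 and 19.5 (log2 difference -1.28, limma adjusted p = 0.030), and Map3k5, the gene of the stress kinase ASK1, from 6.91 and 5.80 to 2.59 and 1.80 (log2 difference -1.21, limma adjusted p = 0.034). Without the filter on low values Mapk13 (adjusted p = 0.058), Elk3 (0.053) and Map3k5 (0.085) were no longer called, and Elk3 (0.20 and 0.15) and Map3k5 (0.41 and 0.21) were also lost without replicate 1 or replicate 2 of 10p-HFSCs. The call of Map3k5 was lost under TPM rescaling as well (0.14). Mapk12 passed the filter through 10p-HFSCs only, and Rps6ka6 through 48p-HFSCs only.

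Genes known to have AP-1 elements in their promoters or enhancers, among them matrix proteases, growth factors and cornified envelope genes, were taken as a list of 35, of which 34 were found and 26 tested. Of these, 10 were called higher and 4 lower, where 10.8% and 9.15% of all genes tested were, with a median log2 difference of 0.48. This list, like the others, was chosen with earlier results of these data known, so these counts are no test of it. The largest increases were those of Sprr1b, a cornified envelope precursor, from 15.1 and 12.8 to 208 and 242 (log2 difference 3.92, limma adjusted p = 0.00092), Plau, the gene of urokinase, from 38.9 and 37.3 to 406 and 511 (3.55, adjusted p = 0.0014), and Tgm1, the transglutaminase that crosslinks the envelope, from 0.0369 and 0.0268 to 6.57 and 11.1 (3.21, adjusted p = 0.0021). Reads of Sprr1b could have been shared with its close copy Sprr1a. Other known targets fell. Spp1, the osteopontin gene, went from 553 and 440.6 in 10p-HFSCs to 11.9 and 51.7 in 48p-HFSCs (log2 difference -4.25, limma adjusted p = 0.0097), Vegfa from 15.3 and 15.9 to 1.53 and 2.18 (-2.55, adjusted p = 0.0030), and S100a8, a calprotectin subunit, from 89.2 and 146 to 27.0 and 16.5 (-2.38, adjusted p = 0.010). These 6 calls were kept under every alternative in which the gene was tested, which was 13 for each but Tgm1, with 11. Tgm1 passed the filter through 48p-HFSCs only, so it was not tested without either of their libraries. Other genes among the 10 called higher also passed through 48p-HFSCs only. Each of these genes has other known regulators, and no count of a list says which factor acted.

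**Figure D4:**
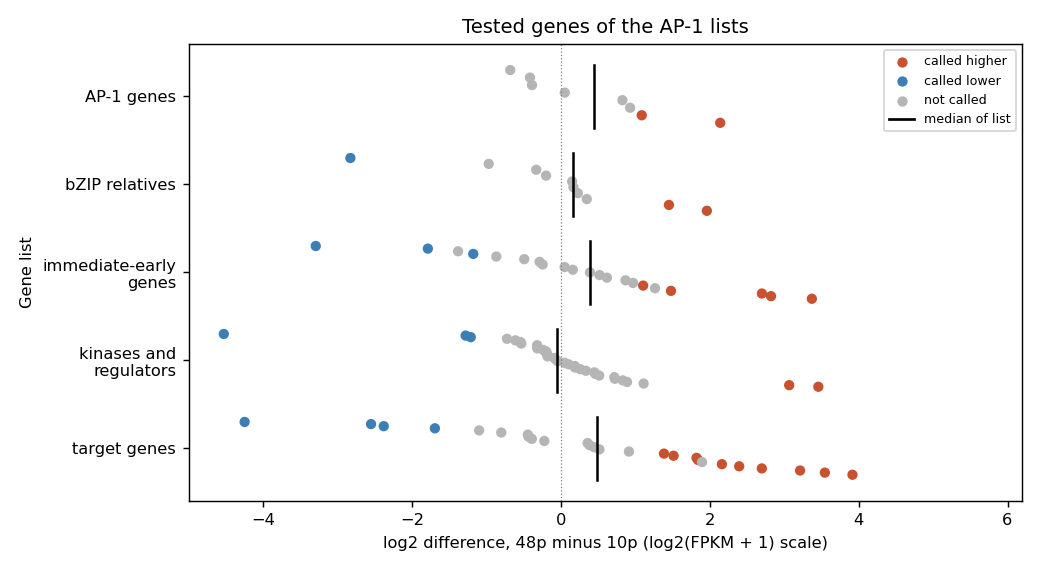
Difference between 48p- and 10p-HFSCs on the log2(FPKM + 1) scale for each tested gene of the AP-1 genes and the 4 other lists (red called higher, blue called lower, grey not called), with a black bar at each list's median. Each of the 4 other lists holds called genes on both sides of 0, and the medians lie between -0.06 and 0.48.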

How the data were processed

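Stranded mRNA libraries were sequenced from one end and mapped by the authors to mm10. The deposited FPKM values, 1 per gene symbol and library, came from Cufflinks per the methods and from Cuffdiff 2.2.1 per the submitters' processing notes, which also name TopHat2 2.1.1, Bowtie2 2.2.8 and SAMtools 0.1.18 (the methods give other versions of the last 2). The annotation, the strand setting and the handling of shared reads are not given in the sources used here. FPKM values carry no counts, so no test for counts was run and no counting interval is given.

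The 11018 genes that reached 1 FPKM in 2 or more libraries were compared on log2(FPKM + 1) with limma 3.58.1 in R 4.3.3 (variance trend, Benjamini-Hochberg adjustment over all of them, adjusted p under 0.05 and a log2 difference of at least 1). The pseudocount understates changes of low genes. The fit was tested on simulated data, in which most of the changes put in were not called. Alternatives were another pseudocount, other filters, TPM, median-of-ratios and quantile scaling, a constant variance prior, calls without a fold limit, a block for the replicate number and leaving out each library. A correction for transcript length (natural spline, 4 degrees of freedom, 96.3% of genes) was added after the values had been seen. Positions and lengths came from GENCODE M21 (GRCm38, the same assembly as mm10) and promoters from RefSeq (GRCm38.p6).

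The members and all lists were chosen with earlier results of these data known. Named were all 9 AP-1 genes, in each other list up to 3 genes called higher and 3 called lower with the largest differences, and the 3 genes nearest to the AP-1 gene with the largest change. Of 5 endothelial and 6 melanocyte markers, 1 each passed the filter and 0 were called. With a replicate block, the endothelial one was called lower. The summed FPKM was at most 2.86 in any library for the endothelial list. For the melanocyte list it went from 1.50 and 1.43 in 10p-HFSCs to 4.06 and 11.9 in 48p-HFSCs. Of that list, Tyr reached the call under TPM rescaling (limma adjusted p = 0.026) and with a replicate block (0.0016).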

Additional observations from a re-analysis of the deposited data

How the results depend on the processing

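Jun was called higher under 12 of 13 alternatives, the exception being TPM rescaling, and Junb under 6 of 13. The other 6 AP-1 genes tested stayed without a call, except Atf3 and Maff without replicate 1 of 48p-HFSCs. Accordingly, the 2 AP-1 genes called higher became 0 under TPM rescaling and 1 without the filter on low values, under quantile normalization and after the correction for transcript length, and 1 to 4 with a library left out, with 0 called lower in each. Under TPM rescaling, 620 of all genes were called higher and 820 lower (43.1% of calls upward, against 54.1% of 1189 and 1008), and the genes called higher numbered 1 of the bZIP relatives, 3 of the immediate-early genes and 6 of the target genes. Without the filter, 637 of all genes were called lower, 3 immediate-early genes higher, and 1 upstream gene in each direction. With a library left out, 611 to 1609 of all genes were called higher and 217 to 2131 lower. The ranges were 0 to 1 and 0 to 2 for bZIP relatives called higher and lower, 3 to 9 and 1 to 6 for immediate-early genes, 2 to 3 and 0 to 4 for upstream genes, and 7 to 9 and 3 to 5 for target genes. A gene that passed the filter through 1 group only was not tested once a library of that group was left out. Among the named genes these were Batf3, Rps6ka6 and Tgm1 through 48p-HFSCs, and Maf, Egr2, Egr3 and Mapk12 through 10p-HFSCs. The fits that leave 1 library of 10p-HFSCs assume that it varies like 48p-HFSCs, whose replicates differ more. Neither the part of this assumption in the lost calls nor the cause of the other changes was tested.

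The difference in share was 11 to 12.1 percentage points for Jun, 1.92 to 12.7 for Junb, -24.9 to -12.9 for Jund, -2.79 to 15.9 for Fos, 0.614 to 4.62 for Fosb, -5.52 to -3.66 for Fosl1 and -12.4 to 3.30 for Fosl2 with a library left out. On shares of summed log2(FPKM + 1) it turned to -0.765 for Junb and to 0.584 for Fosl2. The difference of Fos turned to -0.0092 with a pseudocount of 0.1, to -0.32 under TPM rescaling and to -0.18 after the correction for transcript length, and ranged from -0.78 to 0.89 with a library left out.

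The groups carry the same replicate numbers, but nothing states that same-numbered libraries were prepared together. Across genes, libraries of the same number deviated from their group means with a correlation of 0.408. In a fit with a replicate block, calls numbered 1613 upward and 1497 downward over all genes, and of the AP-1 genes 2 higher and 0 lower, Jun with an adjusted p of 5.1e-05 and Junb of 0.013 (limma). Atf3 (0.039) and Maff (0.041) passed the limit on p but not that on the fold. How far the large FPKM steps of replicate 2 of 48p-HFSCs limit the low genes Fosl1 and Fosb was not tested.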
